A study of Mus musculus with 16 samples.

Results

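The genes analysed were 45 of the 19866 entries in the deposited count table, those for the Wnt ligands, their receptors and their secreted modulators. They were taken by a rule on gene symbols. There were 19 Wnt ligands, 10 Frizzled receptors (Fzd), the co-receptors Lrp5 and Lrp6, 4 R-spondins (Rspo), 4 secreted Frizzled-related proteins (Sfrp), 4 Dickkopf proteins (Dkk), Wif1 and the intracellular feedback gene Axin2. The symbol rule did not take in Frzb, a further Frizzled-related protein, which was counted with the other antagonists.

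RNA was sequenced from 16 libraries of transgenic mouse pmi28 cells, a myoblast line that fuses into multinucleate myotubes. One of the lines carried inducible msx2 and GFP, and the other inducible GFP alone; Msx2 is a homeobox transcription factor of limb, skull and tooth development, known largely as a repressor. The 6 groups were isolated myotubes after induction (3 libraries of each line), isolated myotubes without induction (3 of each) and myoblasts without induction (2 of each). The comparisons asked how ectopic msx2 changes transcript levels in isolated myotubes, with the myoblasts as the undifferentiated state. Myoblasts were kept in 20% fetal bovine serum. For myotubes, confluent cultures spent 3 days in 10% horse serum, myotubes were held back on a nylon mesh, and they were cultured with AraC, which stops dividing cells and was removed before the treatments. Induced myotubes then had doxycycline at 2 µg/ml for 24 h, given in the medium with 20% fetal bovine serum. The labels do not give the medium of the uninduced myotubes over that time, so within a line the effects of doxycycline, transgene and serum cannot be told apart, and the GFP line carried all of these except msx2. The labels also do not say what promoter drove the transgenes, whether each line was 1 clone, or whether the libraries of a group came from separate cultures. The p-values therefore measure the spread between these libraries, which may be technical.

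Libraries held 19784873 to 33092666 counts. The targeted gene, Msx2, had counts-per-million values (CPM, scaled to the effective library size) of 1344, 1462 and 1514 in induced msx2-line myotubes, against 12.1, 15.9 and 13.2 CPM in uninduced msx2-line myotubes. GFP-line libraries were at 0.803 to 1.26 CPM in induced myotubes, against 1.03 to 1.18 CPM in uninduced myotubes. The libraries numbered 2 of the msx2-line myotubes stood farther from their group than the others, with a chi-square per degree of freedom of 20.91 to 31.26 against libraries 1 and 3, which differed from each other by 10.84 (induced) and 13.77 (uninduced). The GFP-line myoblast libraries differed little beyond counting noise (1.949), where every other pair of a group was at 10.5 or above; they were kept as 2 samples, and the calls that end when they are summed are named with their comparison. The label of myotube fits the marker levels in both lines, with the 10 myotube markers summing to 15974 to 35176 CPM in myotubes, against 463 to 1214 CPM in myoblasts. Induction of msx2 went with a lower sum, 15974 to 19319 CPM in induced msx2-line myotubes, against 27536 to 32224 CPM in uninduced ones; 6 of the 10 markers fell and 1 rose. The 10 cycling-cell markers summed to 30.5 to 78.4 CPM in induced msx2-line myotubes, against 35.1 to 45.4 CPM in uninduced ones, with none past the threshold. The 5 markers of undifferentiated or reserve myoblasts summed to 140.2 to 178 CPM, against 87.2 to 147 CPM (1 rose, 1 fell). Most of this sum was Sdc4, with a mean of 137 CPM in induced msx2-line myotubes, against 97.9 CPM in uninduced ones. Pax7 averaged 9.26 CPM, against 3.31 CPM, and Myf5 1.58 CPM, against 6.30 CPM. Pax3 was at 5.01 CPM, against 6.44 CPM, and Calcr at 2.48 CPM, against 2.80 CPM. The 10 fibroblast markers summed to 434 to 1317 CPM, against 468 to 1256 CPM (1 of 9 tested rose). Leukocyte markers (31.9 to 33.4 CPM, against 30.7 to 34 CPM; 1 rose, 1 fell) and endothelial markers (37.0 to 40.6 CPM, against 37.5 to 44.6 CPM; none passed) had like sums. The part of the lower myotube marker level in the changes given below was not tested. In such bulk RNA, fewer cells of a type and less RNA per cell cannot be told apart.

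Wnt proteins are secreted lipid-modified ligands that bind Frizzled receptors on the receiving cell. With the co-receptors Lrp5 or Lrp6 they stabilise beta-catenin, which enters the nucleus and, with Tcf and Lef factors, switches on targets such as Axin2, whose protein in turn promotes beta-catenin breakdown. Other ligands act through Frizzled on cell polarity and calcium without beta-catenin. Sfrp proteins and Wif1 bind Wnt ligands outside the cell, some Dkk proteins, such as Dkk2, bind Lrp co-receptors, and R-spondins raise the amount of receptor at the surface. In muscle, Wnt ligands are known for roles in myoblast differentiation, in muscle stem cells and at the neuromuscular junction.

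The promoters of the family were read from RefSeq's GRCm38.p6 table, a later build than the mm9 of the counts. It held 32 windows for 29 of the 45 members, and the 250 bases before each start were searched on both strands for 5 motifs. These were TAATTG (a core bound by Msx homeodomains), CTTTGAA and CTTTGAT (Tcf and Lef) and CAGCTG and CAGGTG (E-boxes, bound by myogenic factors among others); CTTTGAA and CTTTGAT differ in their last letter, and the E-boxes in 1 letter. TAATTG was in none of the 32 member windows and in 7.17% of all 32851 windows. CTTTGAT was in 6.25% of member windows (Wnt11 and Wnt5b) and 3.21% of all, and CTTTGAA in 3.12% (Dkk1) and 4.46%. CAGGTG was in 31.2% of member windows and 17.2% of all, and CAGCTG in 6.25% (Fzd10 and Wnt9a) and 13.0%. Member windows had a median GC content of 68.6%, against 52.4% over all windows. The 4 windows below belong to members that changed with msx2 induction and hold a Tcf/Lef or E-box match, shown in capitals; they were chosen after the matches were seen, and Wnt4 and Fzd5 also hold CAGGTG. A match is a description of the letters, not a site, and the absence of one says nothing about binding elsewhere.
Wnt11 (chr7:98834862-98835111, plus strand; CTTTGAT read on the opposite strand, its first letter shown 51 bases before the start): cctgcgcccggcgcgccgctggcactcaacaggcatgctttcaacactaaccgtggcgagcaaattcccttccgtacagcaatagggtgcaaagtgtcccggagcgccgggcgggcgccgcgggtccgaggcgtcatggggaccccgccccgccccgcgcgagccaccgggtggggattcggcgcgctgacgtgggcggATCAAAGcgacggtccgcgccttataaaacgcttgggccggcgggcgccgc
Wnt10b (chr15:98778151-98778400, minus strand; CAGGTG, 190 bases before the start): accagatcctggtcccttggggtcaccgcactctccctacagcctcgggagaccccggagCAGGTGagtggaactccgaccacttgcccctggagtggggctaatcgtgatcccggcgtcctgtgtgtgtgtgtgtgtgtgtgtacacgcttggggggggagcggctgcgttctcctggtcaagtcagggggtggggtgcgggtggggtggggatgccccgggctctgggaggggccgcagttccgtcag
Wnt9a (chr11:59306680-59306929, plus strand; CAGCTG, 74 bases before the start): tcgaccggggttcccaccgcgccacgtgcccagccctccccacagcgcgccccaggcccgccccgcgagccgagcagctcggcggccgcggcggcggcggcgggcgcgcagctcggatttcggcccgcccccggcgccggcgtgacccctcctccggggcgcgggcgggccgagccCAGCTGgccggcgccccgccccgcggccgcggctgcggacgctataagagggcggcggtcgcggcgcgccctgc
Wif1 (chr10:121033754-121034003, plus strand; CAGGTG read on the opposite strand, 123 bases before the start): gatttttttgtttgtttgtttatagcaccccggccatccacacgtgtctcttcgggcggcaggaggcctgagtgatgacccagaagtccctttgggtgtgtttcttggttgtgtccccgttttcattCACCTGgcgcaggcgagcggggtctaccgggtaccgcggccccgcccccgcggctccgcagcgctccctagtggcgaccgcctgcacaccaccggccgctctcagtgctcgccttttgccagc

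Of the 45 members, 35 had enough reads to be tested and 31 of these reached a group mean of 1 CPM. The other 4 tested members, Rspo4, Wnt2, Wnt3a and Wnt7a, were at 0 to 1.12 CPM in single libraries. The 10 that were not tested (Dkk1, Dkk4, Fzd10, Rspo1, Sfrp5, Wnt1, Wnt16, Wnt8a, Wnt8b and Wnt9b) had at most 15 reads in a library, or 0.473 CPM. At this depth 11 of the 19 ligands were thus above 1 CPM in a group. More members reached 1 CPM in myotubes than in myoblasts: 29 and 30 tested members were at 1 CPM or more in induced and uninduced myotubes of either line, and 25 in the myoblasts of either line. No share over all genes was taken for this count. It is also not a measure of amount, since the mean Frizzled sum given below was not higher in myotubes.

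Induction changed the family in the msx2 line. Of the 35 members tested, 22 passed the threshold (adjusted p under 0.05, edgeR's quasi-likelihood test with Benjamini-Hochberg adjustment over 16245 genes), 10 higher and 12 lower in induced msx2-line myotubes; 32.5% of all genes passed in this comparison, 16.2% higher and 16.3% lower. The median log2 fold change was -0.13 over the members and -0.01 over all genes. With GFP alone none of the 35 passed, none had an unadjusted p under 0.05 and DESeq2 called none, beside 0.0308% of all genes called after adjustment. The share of all genes with an unadjusted p under 0.05 was not taken. The difference between the lines, the log2 induction in the msx2 line minus that in the GFP line, passed for 12 members, 6 positive and 6 negative, and for 17.9% of all genes (9.15% positive, 8.78% negative). The members higher with msx2 were mostly ligands, 7 of 14 tested against 1 lower, while 5 of 9 Frizzled receptors were lower against 1 higher, and of the tested Sfrp, Dkk and R-spondin genes and Wif1 none was higher. Without both libraries numbered 2 of the msx2-line myotubes, 20 members passed in the msx2 line and the same 12 in the difference. Shares over all genes are from the edgeR fit of all 16 libraries without a replicate block. None was taken for this or the other alternative fits.

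**Figure D1:**
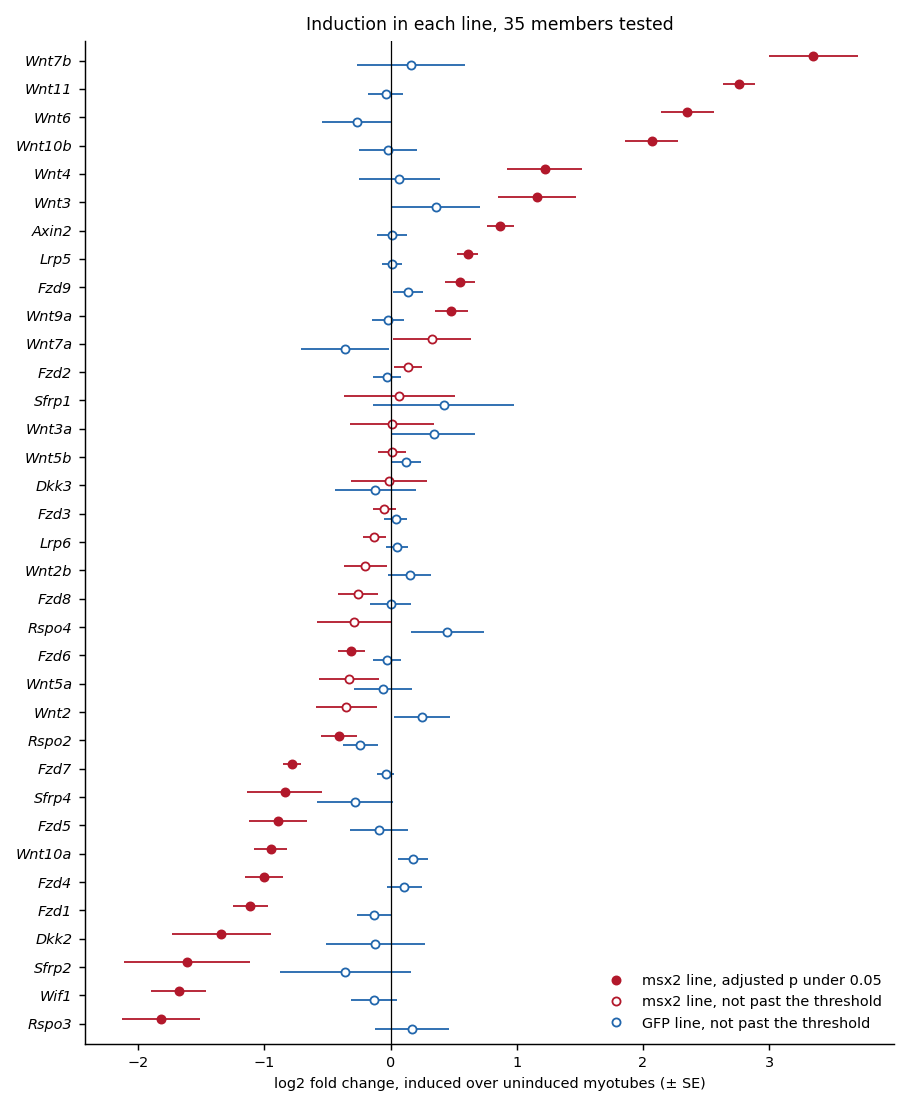
Log2 fold change (horizontal axis, with standard error bars) of induced over uninduced myotubes for the 35 tested members, one row per gene, msx2 line in red above GFP line in blue; filled circles passed the threshold. The msx2-line values run from 3.35 (Wnt7b) to -1.82 (Rspo3), and no GFP-line value is filled.

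Among the ligands, Wnt7b, which is known from lung, kidney and bone development, was the most raised by fold. It was at 29.7, 57.5 and 40.3 CPM in induced msx2-line myotubes, against 2.50, 6.36 and 3.43 CPM in uninduced msx2-line myotubes. The GFP line was at 1.89, 4.12 and 2.48 CPM in induced myotubes, against 1.77, 3.36 and 2.44 CPM in uninduced ones. The lowest induced msx2 library thus lay far above the highest of all other myotubes, and in each of the 4 myotube groups library 2 was the highest. The log2 induction was 3.35 ± 0.35 (SE) in the msx2 line, and it differed between the lines by 3.19 ± 0.55 (adjusted p = 0.00123).

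Wnt11, a ligand best known for cell movement and polarity and, in chick embryos, for the elongation of early muscle fibres, was at 84.8, 59.9 and 67.9 CPM in induced msx2-line myotubes, against 10.9, 9.74 and 10.7 CPM in uninduced ones. In the GFP line it was at 10.3, 11.1 and 10.2 CPM in induced myotubes, against 10.3, 10.5 and 11.6 CPM in uninduced ones. The 9 other myotube libraries lay close together, and the 3 induced msx2 libraries stood well above them. The lines differed by 2.80 ± 0.19 log2 (adjusted p = 2.39e-07), the smallest p of the family.

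Wnt10b, which favours bone over fat and muscle over fat, was at 30.3, 21.4 and 26.3 CPM in induced msx2-line myotubes, against 7.49, 4.27 and 6.85 CPM in uninduced ones. Its GFP-line levels were 6.09, 4.16 and 6.76 CPM in induced myotubes, against 6.02, 4.39 and 6.77 CPM in uninduced ones. Library 2 was the lowest in each of these groups, and the induced msx2 libraries were clear of the rest. Between the lines the difference was 2.10 ± 0.31 log2 (adjusted p = 0.000274).

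Wnt6, an epithelial ligand that acts on somites, was at 6.00, 7.36 and 8.25 CPM in induced msx2-line myotubes, against 1.65, 1.42 and 1.21 CPM in uninduced ones. GFP-line myotubes had 0.803, 1.09 and 0.973 CPM when induced, against 0.860, 1.44 and 1.12 CPM when uninduced. Only the induced msx2 libraries exceeded 1.65 CPM. The msx2 line minus the GFP line gave 2.62 ± 0.34 log2 (adjusted p = 5.7e-05).

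A further 3 ligands rose in the msx2 line, but their difference between the lines missed the threshold. Wnt4, a ligand of kidney and gonad development, was at 45.4, 28.9 and 35.5 CPM in induced msx2-line myotubes, against 17.7, 10.7 and 18.7 CPM in uninduced ones. Its induction was 1.22 ± 0.30 log2 (adjusted p = 0.00702), and the lines differed by 1.15 ± 0.44 (adjusted p = 0.0957), or 0.00654 to 0.262 over the alternatives; it passed with DESeq2, in both fits with the replicate number as a block, and without library 3 of the induced GFP-line myotubes (adjusted p = 0.0294). Wnt3, which acts in limb and nervous system, was at 2.41, 2.52 and 3.17 CPM, against 1.70, 0.960 and 1.06 CPM. It rose by 1.16 ± 0.31 log2 (adjusted p = 0.00917), and the lines differed by 0.81 ± 0.47 (adjusted p = 0.278). Neither gene's groups overlapped.

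Wnt9a, which takes part in joint formation, was the most abundant ligand per length in uninduced cells. It was at 66.3, 53.9 and 60.7 CPM in induced msx2-line myotubes, against 45.1, 38.9 and 46.1 CPM in uninduced ones. It rose by 0.48 ± 0.13 log2 (adjusted p = 0.0117), but did not pass without library 2 of the uninduced group (adjusted p = 0.0504) or library 1 of the induced group (0.0541). The difference between the lines was 0.50 ± 0.19 (adjusted p = 0.0853); it passed with the replicate number as a block, and without library 3 of the induced (adjusted p = 0.0444) or library 1 of the uninduced GFP-line myotubes (0.0193).

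Wnt10a, a ligand of tooth, hair and sweat gland development, was the ligand that fell. It was at 5.07, 5.00 and 6.26 CPM in induced msx2-line myotubes, against 9.93, 10.2 and 11.4 CPM in uninduced ones. In the GFP line it was at 12.1, 13.2 and 14.5 CPM in induced myotubes, against 10.4, 11.1 and 13.6 CPM in uninduced ones. The groups overlapped in the GFP line and not in the msx2 line. The lines differed by -1.13 ± 0.17 log2 (adjusted p = 0.000257).

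The other 6 tested ligands had msx2-line inductions between -0.35 and 0.33 log2 and none passed. Wnt5a and Wnt5b, often linked to polarity signalling, were at -0.33 ± 0.24 and 0.01 ± 0.11 log2. Wnt2b was at -0.20 ± 0.17, and Wnt2, Wnt3a and Wnt7a had fewer reads.

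**Figure D2:**
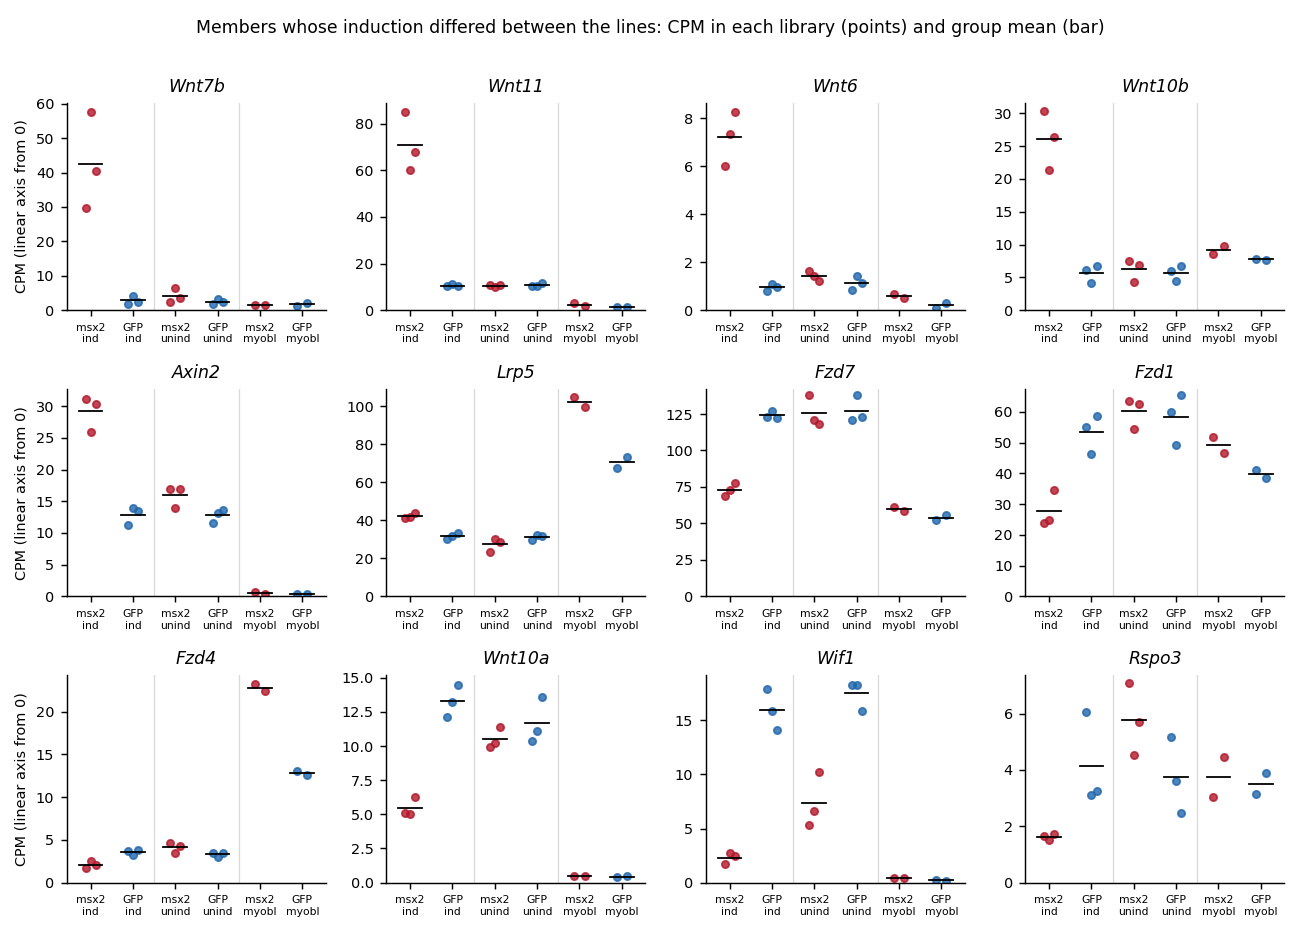
CPM in each library (points) with the group mean (bar) for the 12 members whose induction differed between the lines, one panel per gene with a linear axis from 0; groups run from induced myotubes (ind) on the left through uninduced myotubes (unind) to myoblasts (myobl), msx2 line in red and GFP line in blue. The induced msx2 libraries lie apart from the other 9 myotube libraries in each of the 12 panels, and for Wif1 the uninduced msx2 libraries also lie below those of the GFP line. The panels were chosen by the difference between the lines, so their separation is not a further result.

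Of the Frizzled receptors, Fzd7, the main one of muscle stem cells, was at 68.7, 72.9 and 77.8 CPM in induced msx2-line myotubes, against 138, 121 and 118 CPM in uninduced ones. GFP-line libraries were at 123, 127 and 122 CPM in induced myotubes, against 121, 138 and 123 CPM in uninduced ones. All 9 libraries without induced msx2 lay between 118 and 138 CPM. Between the lines the difference was -0.74 ± 0.10 log2 (adjusted p = 0.000101).

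Fzd1, a close relative of Fzd2 and Fzd7, was at 23.8, 24.9 and 34.7 CPM in induced msx2-line myotubes, against 63.6, 54.5 and 62.4 CPM in uninduced ones. The GFP line was at 55.1, 46.4 and 58.7 CPM in induced myotubes, against 59.8, 49.3 and 65.4 CPM in uninduced ones. The induced msx2 libraries were below all others. The msx2 line minus the GFP line gave -0.99 ± 0.20 log2 (adjusted p = 0.00261).

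Fzd4, the receptor for Norrin in retinal vessels, was at 1.69, 2.48 and 2.03 CPM in induced msx2-line myotubes, against 4.64, 3.48 and 4.33 CPM in uninduced ones. The GFP-line values were 3.64, 3.24 and 3.84 CPM in induced myotubes, against 3.49, 3.02 and 3.41 CPM in uninduced ones. The msx2 groups did not overlap, and the difference between the lines was -1.10 ± 0.21 log2 (adjusted p = 0.00136).

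Fzd5, Fzd6 and Fzd9 changed in the msx2 line only so far as that line's own test goes, since their difference between the lines did not pass. Fzd5, a receptor of eye and gut development, was at 6.89, 9.92 and 11.6 CPM in induced msx2-line myotubes, against 15.6, 16.7 and 20.3 CPM in uninduced ones (-0.89 ± 0.23 log2, adjusted p = 0.0091). Its difference between the lines was -0.80 ± 0.33 (adjusted p = 0.117), and it passed with the replicate block and without library 3 of the uninduced GFP-line myotubes (adjusted p = 0.0247). Fzd9, the receptor that rose, was at 7.73, 9.65 and 8.75 CPM, against 5.94, 6.01 and 5.89 CPM (0.55 ± 0.12 log2, adjusted p = 0.00285), with a difference between the lines of 0.41 ± 0.17 (adjusted p = 0.129). Fzd6, a polarity receptor, was at 21.5, 27.2 and 21.6 CPM, against 24.4, 32.6 and 29.8 CPM, and these groups overlapped. Its change of -0.31 ± 0.11 log2 (adjusted p = 0.0349) did not pass without library 2 (adjusted p = 0.154) or 3 (0.0971) of the uninduced group or library 1 (0.139) or 3 (0.14) of the induced group. Fzd2, Fzd3 and Fzd8 had inductions of 0.14 ± 0.11, -0.05 ± 0.09 and -0.26 ± 0.16 log2 and did not pass.

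The co-receptor Lrp5, known for its part in bone mass, was at 41.0, 41.5 and 43.8 CPM in induced msx2-line myotubes, against 23.5, 30.0 and 28.8 CPM in uninduced ones. In the GFP line it was at 29.9, 31.6 and 33.1 CPM in induced myotubes, against 29.8, 32.4 and 31.8 CPM in uninduced ones. The induced msx2 libraries were the highest of all myotubes, and the difference between the lines was 0.61 ± 0.11 log2 (adjusted p = 0.00143). Its relative Lrp6 was at 102, 95.5 and 106 CPM in induced msx2-line myotubes, against 122, 96.3 and 112 CPM in uninduced ones, and its change of -0.13 ± 0.09 log2 did not pass. Per kb of transcript, the ratio of Lrp5 to Lrp6 was 0.440 ± 0.0167 in induced msx2-line myotubes, against 0.268 ± 0.0631 in uninduced ones (SD, n = 3 each), and 0.282 ± 0.0411 in induced GFP-line myotubes, against 0.290 ± 0.0363 in uninduced ones (SD, n = 3 each).

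Axin2, the feedback target of beta-catenin, was at 31.2, 26.0 and 30.4 CPM in induced msx2-line myotubes, against 17, 14.0 and 17 CPM in uninduced ones. Its GFP-line levels were 11.2, 14.0 and 13.5 CPM in induced myotubes, against 11.5, 13.1 and 13.7 CPM in uninduced ones. The msx2 groups did not overlap, and the GFP groups did. The difference between the lines was 0.86 ± 0.16 log2 (adjusted p = 0.00163).

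Of the secreted antagonists, Wif1, which binds Wnt ligands, was at 1.69, 2.76 and 2.49 CPM in induced msx2-line myotubes, against 5.29, 6.61 and 10.2 CPM in uninduced ones. In the GFP line it was at 17.9, 15.9 and 14.1 CPM in induced myotubes, against 18.3, 18.3 and 15.9 CPM in uninduced ones. Wif1 thus already stood lower in uninduced msx2-line myotubes than in the GFP line, and lower again with induction. The lines differed by -1.56 ± 0.29 log2 (adjusted p = 0.00127).

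Rspo3, an R-spondin that strengthens Wnt signals at the surface, was at 1.65, 1.5 and 1.71 CPM in induced msx2-line myotubes, against 7.09, 4.52 and 5.70 CPM in uninduced ones. GFP-line libraries were at 6.05, 3.11 and 3.26 CPM in induced myotubes, against 5.16, 3.61 and 2.47 CPM in uninduced ones. The induced msx2 libraries were the lowest of the 12. Between the lines the difference was -1.99 ± 0.42 log2 (adjusted p = 0.0039), the most negative of the family.

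The falls of Dkk2, Sfrp2, Sfrp4 and Rspo2 were less secure. Dkk2, which binds Lrp co-receptors, was at 1.61, 2.87 and 2.42 CPM in induced msx2-line myotubes, against 2.65, 5.90 and 8.66 CPM in uninduced ones, and these groups overlapped. It fell by 1.34 log2 (SE 0.39, adjusted p = 0.018), but did not pass without uninduced library 3 (adjusted p = 0.101) or induced library 1 (0.0751); its difference between the lines, -1.22 ± 0.55, passed without uninduced library 1 (0.0282). Sfrp2, a Wnt-binding protein of stroma and myoblasts, was at 0.592, 1.65 and 1.42 CPM, against 3.69, 1.88 and 5.67 CPM, and fell by 1.61 log2 (SE 0.50, adjusted p = 0.0255).

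The Sfrp2 call did not hold without uninduced library 1 (adjusted p = 0.051) or 3 (0.137) or induced library 1 (0.0961) or 3 (0.0554). Sfrp4 was at 0.634, 1.38 and 0.747 CPM in induced msx2-line myotubes, against 1.15, 2.13 and 1.59 CPM in uninduced ones, and these groups overlapped. Its change of -0.84 ± 0.30 log2 (adjusted p = 0.0431) did not pass without uninduced library 2 (adjusted p = 0.181) or 3 (0.0784) or induced library 1 (0.16) or 3 (0.15). Rspo2, an R-spondin of the neuromuscular junction, was at 2.75, 2.64 and 2.81 CPM, against 4.04, 3.59 and 3.30 CPM. Its change of -0.41 ± 0.14 log2 (adjusted p = 0.0305) did not pass with DESeq2 (0.0587) or without any one of uninduced libraries 1 (0.111) and 2 (0.0587) and induced libraries 1 (0.0715), 2 (0.0823) and 3 (0.0595). None of the 4 passed in the difference between the lines as fitted. With the replicate number as a block, which pairs myotube libraries, the difference passed for 16 members, 8 positive and 8 negative: Dkk2 (adjusted p = 0.0231), Fzd5 (0.00337), Wnt4 (0.00654) and Wnt9a (0.0281) joined the 12. No share over all genes was taken in the block fit, so the higher count cannot be set against all genes. Dkk3 and Sfrp1 changed by -0.01 ± 0.30 and 0.07 ± 0.44 log2 in the msx2 line and did not pass.

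Levels of different ligands were compared per kb of the longest GENCODE M21 transcript, since the annotation behind the counts is not given in the sources used here. The 19 ligands together summed to 81.3 ± 4.40 CPM per kb in induced msx2-line myotubes, against 34.1 ± 2.47 CPM per kb in uninduced ones (SD, n = 3 each). Sums in the GFP line were 31.9 ± 2.94 CPM per kb in induced myotubes, against 30.8 ± 4.41 CPM per kb in uninduced ones (SD, n = 3 each). Single libraries ran from 77.0 to 85.8 CPM per kb in induced msx2-line myotubes and from 27.1 to 36.2 CPM per kb in the other 9 myotube libraries. Myoblasts had 19.6 and 19 CPM per kb in the msx2 line and 12.7 and 12.3 CPM per kb in the GFP line. Wnt9a led this pool in uninduced msx2-line myotubes (38.2% of the ligand sum per kb), induced (36.7%) and uninduced (38.4%) GFP-line myotubes, and msx2-line (39.6%) and GFP-line (27.4%) myoblasts. In induced msx2-line myotubes Wnt11 held 25.1% and Wnt9a 22.3%, with shares of 22.6 to 28.6% and 21.1 to 23.3% over libraries, so the order of these 2 does not exceed their spread. Wnt7b (15.6%), Wnt10b (11.7%) and Wnt4 (10.7%) followed, with shares over libraries that overlap; that of Wnt7b ran from 10.2 to 22.0% and reached that of Wnt9a.

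**Figure D3:**
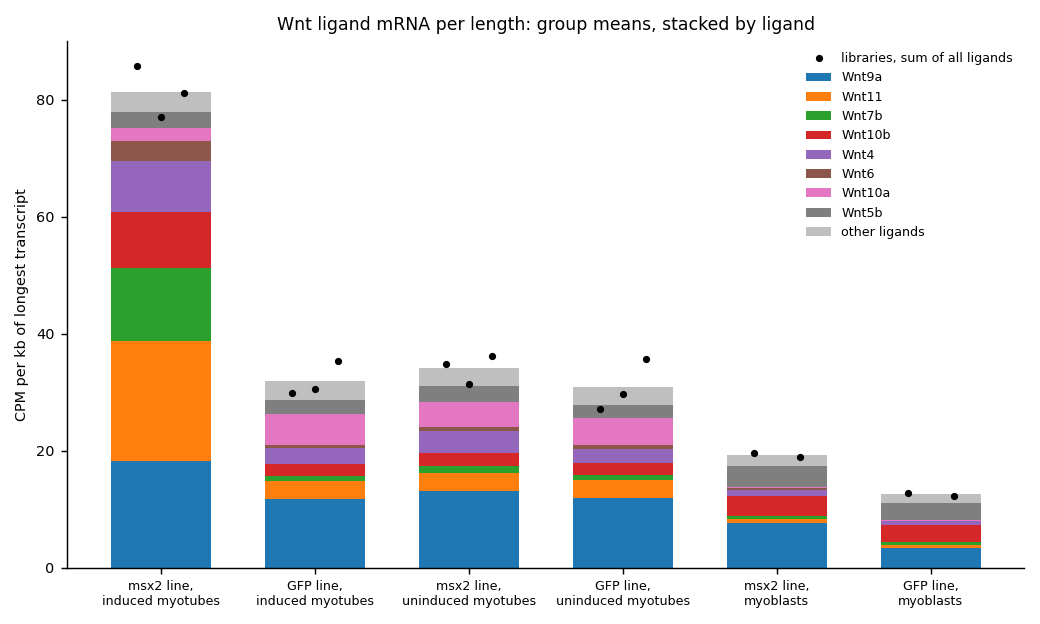
Stacked group means of the Wnt ligands in CPM per kb of transcript (vertical axis, linear from 0) in the 6 groups, with black points for the sum in each library. The induced msx2-line bar reaches 81.3 CPM per kb, and the other myotube bars 30.8 to 34.1 CPM per kb.

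The 10 Frizzled receptors summed to 49.0 ± 3.90 CPM per kb in induced msx2-line myotubes, against 69.1 ± 1.56 CPM per kb in uninduced ones (SD, n = 3 each). GFP-line sums were 68.0 ± 2.58 CPM per kb in induced myotubes, against 69.7 ± 3.29 CPM per kb in uninduced ones (SD, n = 3 each). The receptor sum thus lay lower in the same libraries in which the ligand sum lay higher. Fzd7 was the leading receptor in all 4 myotube groups, with 33% of the sum in induced msx2-line myotubes and 40.1 to 40.4% in the other 3 groups. The myoblasts had 89.1 and 85.4 CPM per kb in the msx2 line and 72.4 and 73.3 CPM per kb in the GFP line, led by Fzd2 (32.8%) and Fzd6 (28.1%) in the msx2 line and by Fzd6 (31.1%) and Fzd2 (28.8%) in the GFP line.

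Set directly against induced GFP-line myotubes, induced msx2-line myotubes differed in 16 of the 35 members, 9 higher and 7 lower, beside 35.3% of all genes (17.6% higher, 17.8% lower). The members' median was -0.20 log2 and that of all genes -0.01. The 7 higher ligands were Wnt7b (3.89 ± 0.37 log2), Wnt6 (2.90 ± 0.22), Wnt11 (2.75 ± 0.13), Wnt10b (2.20 ± 0.22), Wnt4 (1.72 ± 0.31), Wnt3 (0.97 ± 0.31) and Wnt9a (0.63 ± 0.13), beside Axin2 (1.18 ± 0.12) and Lrp5 (0.42 ± 0.08). Lower were Wif1 (-2.78 ± 0.22), Rspo3 (-1.35 ± 0.32), Wnt10a (-1.28 ± 0.13), Fzd1 (-0.94 ± 0.14), Fzd4 (-0.78 ± 0.15), Fzd7 (-0.76 ± 0.07) and Fzd5 (-0.68 ± 0.24). Wnt3 did not pass without library 2 (adjusted p = 0.0952) or 3 (0.0979) of the GFP group or library 3 (0.0874) of the msx2 group, nor Fzd5 without library 3 of the GFP group (0.159) or library 1 (0.145) or 2 (0.0709) of the msx2 group.

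Before induction, 1 of the 35 members differed between the lines, Wif1, which was lower in the msx2 line, beside 0.0616% of all genes called (0.00616% higher, 0.0554% lower). An unadjusted p under 0.05 in edgeR's test was found for 7 members. The share of all genes at that unadjusted level was not taken, so this count cannot be set against all genes. DESeq2 and the fit with the replicate block each called 2, adding Fzd9. Wif1 averaged 7.38 ± 2.57 CPM in uninduced msx2-line myotubes and 17.5 ± 1.40 CPM in uninduced GFP-line myotubes (SD, n = 3 each), a difference of -1.22 ± 0.19 log2 (adjusted p = 0.0297). It did not pass without library 1 (adjusted p = 0.0775) or 2 (0.122) of the msx2 line or library 1 (0.132) or 2 (0.148) of the GFP line, nor in a fit of these groups alone (0.311). Fzd9 averaged 5.94 ± 0.0619 CPM in the msx2 line and 9.36 ± 0.795 CPM in the GFP line (SD, n = 3 each), -0.66 ± 0.12 log2 (adjusted p = 0.0587 as fitted, 0.0179 with the block). Msx2 itself was at 12.1 to 15.9 CPM in these msx2-line myotubes, against 1.03 to 1.18 CPM in the GFP-line ones. Its part in these differences was not tested.

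Among myoblasts, 4 of 35 members were higher in the msx2 line and none lower, beside 16.3% of all genes (9.09% higher, 7.24% lower). Msx2 itself was at 16.8 and 16.4 CPM in msx2-line myoblasts, against 1.59 and 1.28 CPM in GFP-line myoblasts. Its part in these differences was not tested. The median was 0.31 log2 over the members, 0.27 without Wnt3, which had 4 and 0 reads in the msx2-line and GFP-line groups, and 0.08 over all genes. Wnt9a was at 27.1 and 23.6 CPM in msx2-line myoblasts, against 12.2 and 10.7 CPM in GFP-line myoblasts (1.15 ± 0.18 log2, adjusted p = 0.000687). Fzd4 was at 23.2 and 22.4 CPM, against 13.1 and 12.6 CPM (0.83 ± 0.14 log2, adjusted p = 0.00126). Lrp5 was at 105 and 99.4 CPM, against 67.7 and 73.0 CPM (0.54 ± 0.10 log2, adjusted p = 0.00144). These 3 kept their call without each myoblast library in turn. Fzd2, at 107 and 102 CPM, against 74.5 and 78.9 CPM (0.45 ± 0.13 log2, adjusted p = 0.0264), lost it without any 1 of the 4 myoblast libraries (adjusted p = 0.183 and 0.0667 without msx2-line libraries 1 and 2, 0.153 and 0.105 without GFP-line libraries 1 and 2) and when the GFP-line libraries were summed (0.161). The myotube markers summed to 1185 to 1214 CPM in msx2-line myoblasts, against 463 to 476 CPM in GFP-line myoblasts, with 8 of 10 called higher; their part in these values was not tested. In a fit of the myoblasts alone 11 members passed, and 2 of them were lower in the msx2 line, Fzd3 (-0.34 log2, adjusted p = 0.00341) and Lrp6 (-0.24 log2, adjusted p = 0.00101). The share of all genes called in that fit was not taken.

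Differentiation, here the name for uninduced myotubes over myoblasts, went with changes in most of the family in both lines, as in most of all genes tested. The myotubes had also been through horse serum, isolation on the mesh and AraC, while the myoblasts were kept in fetal bovine serum. The effects of these steps and of differentiation itself cannot be told apart in this comparison. In the GFP line 29 of 35 members passed, 19 higher and 10 lower, beside 77.7% of all genes (39.8% higher, 37.9% lower); the median was 0.63 log2, with Wnt3 or without it, against 0.06 over all genes. In the msx2 line 33 passed, 21 higher and 12 lower, beside 79.8% of all genes (40.8% higher, 39% lower); the median was 0.87 log2 (0.82 without Wnt3), against 0.08 over all genes. The shares of members called were thus 82.9% in the GFP line and 94.3% in the msx2 line, beside 77.7% and 79.8% of all genes.

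Axin2 rose in both lines, and was at 11.5, 13.1 and 13.7 CPM in uninduced GFP-line myotubes, against 0.373 and 0.410 CPM in GFP-line myoblasts. In the msx2 line it was at 17, 14.0 and 17 CPM, against 0.668 and 0.411 CPM, and the log2 changes were 5.01 ± 0.23 in the GFP line and 4.89 ± 0.21 in the msx2 line. Wnt10a behaved likewise, with changes of 4.73 ± 0.22 in the GFP line and 4.54 ± 0.22 in the msx2 line, and was below 0.5 CPM in every myoblast library. Wif1 was at 0.233 and 0.182 CPM in GFP-line myoblasts, which is 9 reads in all, and at 0.446 and 0.452 CPM in msx2-line myoblasts; it rose by 6.36 ± 0.38 log2 in the GFP line and 4.04 ± 0.35 in the msx2 line. Wnt11 rose by 2.82 ± 0.20 in the GFP line and 2.10 ± 0.19 in the msx2 line. Wnt3 had no read in GFP-line myoblasts, so its level in uninduced GFP-line myotubes was at least 15.7-fold higher, taking 3 counts in the 2 libraries together as its limit. Wnt7a and Rspo4 also passed in both lines, and Wnt3 in the msx2 line, but they rested on at most 9 reads in a myoblast group, and no fold is given.

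Of the receptors, Fzd7 rose in both lines, by 1.24 ± 0.08 log2 in the GFP line and 1.06 ± 0.08 in the msx2 line, and Fzd9 and Fzd3 rose with it. Fzd6 averaged 25.0 ± 1.34 CPM in uninduced GFP-line myotubes (SD, n = 3), against 98.4 and 97.5 CPM in myoblasts, and fell by 1.97 log2 (SE 0.11). In the msx2 line it fell by 1.87 log2 (SE 0.11), and Fzd4, Fzd2 and Fzd8 were lower in myotubes of both lines. Lrp5 and Lrp6 moved in opposite directions: Lrp5 by -1.16 ± 0.09 and Lrp6 by 0.57 ± 0.11 log2 in the GFP line, and by -1.89 ± 0.09 and 0.67 ± 0.11 in the msx2 line. Per kb, Lrp5 was 1.56 ± 0.0778 times Lrp6 in msx2-line myoblasts and 0.957 ± 0.0750 times in GFP-line myoblasts (SD, n = 2 each). All 3 tested Sfrp genes were lower in myotubes of both lines, with Sfrp2 at -2.52 ± 0.46 log2 in the GFP line and -2.31 ± 0.43 in the msx2 line. Several smaller changes did not pass without 1 or more single libraries. They were, in the GFP line, Dkk3 (adjusted p up to 0.214), Fzd5 (0.12), Wnt2 (0.238) and Wnt5b (0.0709). In the msx2 line they were Dkk2 (0.0922), Dkk3 (0.216), Sfrp1 (0.0727), Wnt10b (0.186), Wnt2 (0.132), Wnt3a (0.318), Wnt5b (0.167) and Wnt7b (0.107). With the GFP-line myoblast libraries summed, Dkk3 (adjusted p = 0.0824) and Fzd5 (0.0678) did not pass in the GFP line. Each value by single libraries is the highest adjusted p from edgeR's test over the libraries of the 2 groups compared.

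**Figure D4:**
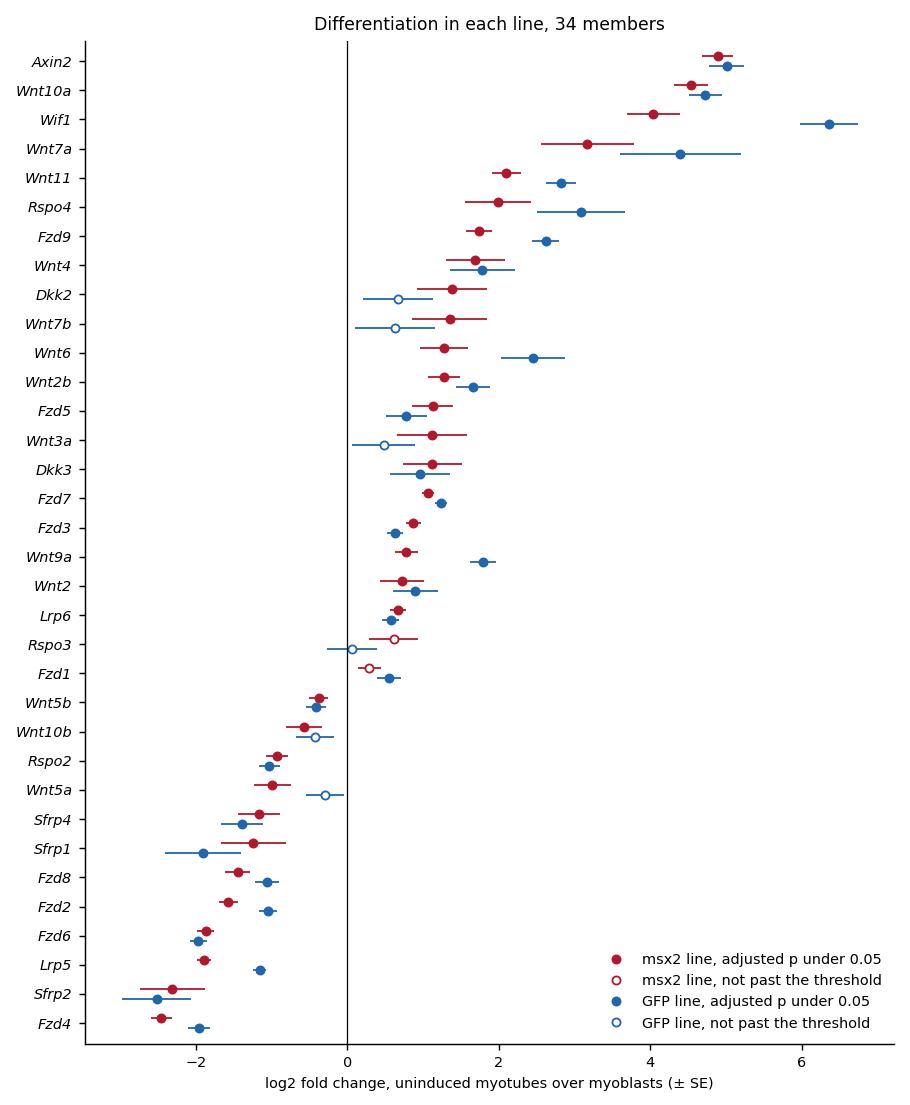
Log2 fold change (horizontal axis, with standard error bars) of uninduced myotubes over myoblasts for 34 tested members, msx2 line in red above GFP line in blue; filled circles passed the threshold. Axin2 and Wnt10a lie between 4.54 and 5.01, and Fzd4 and Sfrp2 are the lowest rows. Wnt7a and Rspo4 rest on few myoblast reads, as do Wif1 and Wnt6 in the GFP line. Wnt3, with no read in GFP-line myoblasts, is left out.

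The change with differentiation differed between the lines for 3 members, all more negative in the msx2 line, beside 8.28% of all genes (4.01% positive, 4.27% negative): Lrp5 (-0.73 ± 0.12 log2, adjusted p = 0.00226), Wnt9a (-1.02 ± 0.22, adjusted p = 0.0118) and Fzd9 (-0.88 ± 0.25, adjusted p = 0.0434). Wnt9a did not pass without library 1 of the msx2-line myoblasts (adjusted p = 0.0838) or library 2 of the GFP-line myoblasts (0.0859), nor with the GFP-line myoblasts summed (0.0512). Fzd9 did not pass with those libraries summed (adjusted p = 0.0935), nor without library 1 (adjusted p = 0.164) or 2 (0.0972) of the msx2-line myoblasts, library 2 of the GFP-line myoblasts (0.245), any of the msx2-line myotube libraries (0.0529 to 0.0759), or library 1 (0.066) or 3 (0.0786) of the GFP-line myotubes. With the replicate number as a block 4 members passed, Fzd2 being the fourth (-0.52 log2, adjusted p = 0.00549, against 0.0672 without the block). With a GC offset added to the block, Fzd9 did not pass (0.159). Wif1 was at -2.32 log2 and missed the threshold as fitted (adjusted p = 0.0556). It passed with DESeq2 (0.00545), which also called Fzd2 (0.0276). In edgeR's test Wif1 passed without library 1 (0.0471) or 3 (0.0089) of the uninduced msx2-line myotubes. The lines' myotube markers also differed here, with 8 of 10 changing less in the msx2 line, and their part in these values was not tested.

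The msx2 induction can be set beside the differentiation of the GFP line, which shares no library with it. Of the 10 members higher with msx2 induction, 7 were higher in GFP-line myotubes than in myoblasts (Axin2, Fzd9, Wnt11, Wnt3, Wnt4, Wnt6 and Wnt9a), 1 was lower (Lrp5) and 2 did not pass (Wnt10b and Wnt7b). Among the 7, Wnt3 had no read in GFP-line myoblasts, and Wnt6 averaged 0.0996 CPM per kb there. Of the 12 lower with msx2 induction, 5 were higher with differentiation (Fzd1, Fzd5, Fzd7, Wif1 and Wnt10a), 5 were lower (Fzd4, Fzd6, Rspo2, Sfrp2 and Sfrp4) and 2 did not pass (Dkk2 and Rspo3). Over all genes tested, 39.8% of those higher with msx2 induction were higher with GFP-line differentiation and 38.9% lower, and of those lower with induction 47.9% were higher and 38.1% lower. The family thus held members of both kinds. Fzd7 at 68.7 to 77.8 CPM in induced msx2-line myotubes lay between its levels in uninduced msx2-line myotubes (118 to 138 CPM) and msx2-line myoblasts (58.8 and 61.6 CPM), whereas Wnt11 at 59.9 to 84.8 CPM lay above both (9.74 to 10.9 CPM and 1.85 and 3.03 CPM).

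The ligand genes include 4 pairs that are next to each other in RefSeq's GRCm38.p6 gene order: Wnt6 with Wnt10a on chromosome 1, Wnt3a with Wnt9a and Wnt9b with Wnt3 on chromosome 11, and Wnt10b with Wnt1 on chromosome 15. Within the first pair the msx2 line moved in opposite directions, with Wnt6 at 2.35 ± 0.21 log2 and Wnt10a at -0.95 ± 0.13. In the pair of Wnt9a and Wnt3a, Wnt9a rose as given above and Wnt3a was at 0.465, 0.276 and 0.534 CPM in induced msx2-line myotubes, against 0.449, 0.462 and 0.374 CPM in uninduced ones. Wnt9b, beside Wnt3, was at 0.211, 0.197 and 0.142 CPM, against 0.449, 0.249 and 0.187 CPM, and was not tested. Wnt1, beside Wnt10b, was at 0.211, 0.354 and 0.427 CPM, against 0.0998, 0.249 and 0.0934 CPM, at most 12 reads in a library, and was not tested either. The strand setting of the counting is not given in the sources used here, so reads of overlapping or antisense transcripts cannot be told apart.

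**Figure D5:**
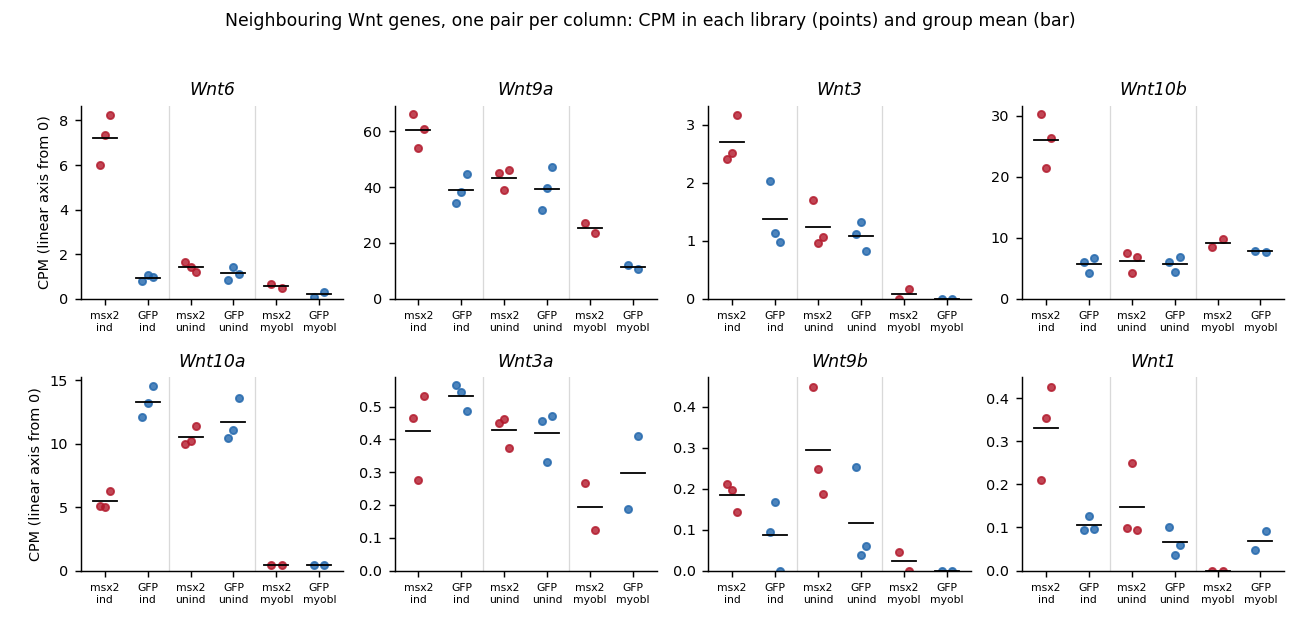
CPM in each library (points) with the group mean (bar) for the 4 pairs of neighbouring ligand genes, 1 pair per column, with a linear axis from 0 in each panel; msx2 line in red, GFP line in blue. Induced msx2-line points are the highest for Wnt6 and the lowest of the myotubes for Wnt10a, and Wnt3a, Wnt9b and Wnt1 stay at or below 0.567 CPM.

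The rest of the pathway was counted in 6 lists, to be read against all genes, of which 16.2% rose and 16.3% fell with msx2 induction and 9.15% had a positive and 8.78% a negative difference between the lines. Calls of list genes come from the edgeR fit of all 16 libraries alone. They were not followed through the alternatives run for the members, such as leaving out libraries, DESeq2, the replicate block or the GC offset. Of the release machinery, Wls, the carrier that brings Wnt proteins to the cell surface, was at 198, 219 and 199.5 CPM in induced msx2-line myotubes, against 368, 342 and 355 CPM in uninduced ones. Its level thus lay lower where the ligand sum was higher, and the difference between the lines was -0.82 ± 0.09 log2 (adjusted p = 9.97e-06). Porcn, the enzyme that attaches the lipid to Wnt proteins, fell in the msx2 line by 0.74 log2 (SE 0.24, adjusted p = 0.0332), with a difference between the lines of -0.68 ± 0.34 (adjusted p = 0.212).

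Of 14 genes for other co-receptors and receptor turnover, 1 rose and 5 fell with msx2 induction (all genes, 16.2% and 16.3%), and 4 had a negative difference between the lines (all genes, 8.78%). They included Ror2, a receptor for Wnt5a (-0.74 ± 0.15 log2, adjusted p = 0.00246), Kremen1, a Dkk receptor (-0.56 ± 0.12, adjusted p = 0.00296), and Znrf3, which removes Frizzled from the surface (-0.34 ± 0.10, adjusted p = 0.0286). Of 7 tested genes for other antagonists, 3 rose and 1 fell, again beside 16.2% and 16.3% of all genes. Notum, an enzyme that strips the lipid from Wnt proteins and is itself a known target of the pathway, was at 8.92, 6.89 and 9.36 CPM in induced msx2-line myotubes, against 1.05, 1.07 and 1.15 CPM in uninduced ones. The GFP line was at 0.967 to 1.51 CPM in induced myotubes, against 0.627 to 1.00 CPM in uninduced ones, and the difference between the lines was 2.43 ± 0.37 log2 (adjusted p = 0.000252). Igfbp4, which binds growth factors and also Frizzled, differed by 1.33 ± 0.18 (adjusted p = 0.000106), and Sost, the osteocyte antagonist, by -2.54 ± 0.67 (adjusted p = 0.0148) at 0.169 to 0.463 CPM in induced msx2-line myotubes, against 0.640 to 2.25 CPM in uninduced ones.

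Inside the cell, 7 of 23 genes of the beta-catenin route rose with msx2 induction and 3 fell, beside 16.2% and 16.3% of all genes, with a list median of 0.12 log2 against -0.01 over all genes. In each direction 3 differed between the lines, beside 9.15% and 8.78% of all genes. Ctnnb1, the gene for beta-catenin, was at 850.1, 710.2 and 791 CPM in induced msx2-line myotubes, against 566, 556 and 575 CPM in uninduced ones, with a difference between the lines of 0.45 ± 0.09 log2 (adjusted p = 0.00182). Bcl9l, a co-activator of beta-catenin, differed by 0.81 ± 0.12 (adjusted p = 0.000163) and Amer1, a scaffold of the complex that degrades it, by -0.86 ± 0.15 (adjusted p = 0.000706). Of 19 genes of the polarity and calcium routes, 6 rose and 5 fell, beside 16.2% and 16.3% of all genes. Of these routes, Daam2, a formin that acts downstream of Dishevelled, differed between the lines by -2.60 ± 0.28 (adjusted p = 3.11e-05), Camk2a, a calcium-dependent kinase, by 0.97 ± 0.11 (adjusted p = 1.76e-05) and Nfatc1, a calcium-dependent transcription factor, by 0.80 ± 0.10 (adjusted p = 5.57e-05).

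Of 17 tested common targets of beta-catenin, 6 rose with msx2 induction and 2 fell, beside 16.2% and 16.3% of all genes, with a median of 0.09 log2 against -0.01 over all genes. Between the lines 4 differed upward and 2 downward, beside 9.15% and 8.78% of all genes. Ccnd1, the gene for cyclin D1, was at 411, 329 and 278 CPM in induced msx2-line myotubes, against 66.4, 107 and 65.2 CPM in uninduced ones. In the GFP line it was at 61.8 to 70.6 CPM in induced myotubes, against 62.6 to 80.5 CPM in uninduced ones, and the difference between the lines was 2.17 ± 0.26 log2 (adjusted p = 8.91e-05). Tnfrsf19, a receptor of the tumour necrosis factor family, was at 7.02, 6.65 and 10.4 CPM in induced msx2-line myotubes, against 63.8, 32.2 and 51.5 CPM in uninduced ones, and the difference was -2.54 ± 0.34 (adjusted p = 0.000214). The targets thus did not share a direction: Axin2, Notum and Ccnd1 were higher with msx2, and Tnfrsf19 lower. No gene of the 6 lists passed in the GFP-line induction.

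The calls of the 12 members with a difference between the lines did not rest on 1 library: each kept its call in all 19 alternatives, which left out each myotube library, left out both libraries numbered 2 of the msx2-line myotubes, and took in a fit that corrected for GC content beside the replicate block. In the fit with the replicate block, fold changes of all genes ran with GC content in the msx2 induction. Medians were -0.127 log2 in the lowest and 0.180 in the highest of 10 equal groups of genes ordered by GC. From the lowest to the highest group, the 35 tested members numbered 1, 0, 3, 5, 0, 3, 6, 4, 8 and 5. Groups 7 to 10, where many of the members lay, had medians of 0.0419, 0.121, 0.149 and 0.180 log2 over all genes.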

How the data were processed

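Reads were aligned to mm9, and TopHat2 2.0.11, SAMtools 0.1.19 and edgeR 3.6.8 are named, per the submitters' processing notes; the counting tool, annotation and strand were not given in the sources used here. The authors deposited raw counts per gene, 19784873 to 33092666 per library. PCR reads without molecular identifiers are not independent molecules. Left out were 67 entries with no symbol, which held 0.0601 to 0.0878% of each library. All 16 libraries entered 1 fit of edgeR 4.0.16 in R 4.3.3 (TMM scaling, filterByExpr with a minimum count of 10, robust quasi-likelihood test, 10 residual degrees of freedom), with Benjamini-Hochberg adjustment over 16245 genes and a threshold of 0.05; the fit was tested on simulated data. Fold changes are edgeR's shrunken log2 values, and each SE is the unshrunk log2 value over the root of F. DESeq2 1.42.0 was an alternative. Members at 1 CPM or more in a group are described; full values go to those past the threshold in the msx2 induction or the difference of inductions, and per list to up to 3 genes with the smallest adjusted p in that difference. The members and lists were chosen with earlier results of these data known. Myotube libraries were paired by replicate number from the data, since the labels do not say what a number marks: same-numbered deviations correlated by 0.207 to 0.508 between induced and uninduced msx2-line libraries, 0.359 to 0.453 in the GFP line and 0.177 to 0.288 between uninduced lines, but by 0.091 to 0.247 between induced lines and 0.04 in myoblasts.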

Additional observations from a re-analysis of the deposited data

Results flagged for a closer look

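Values here are the log2 induction in the msx2 line minus that in the GFP line, ± SE. By the interaction test of edgeR with Benjamini-Hochberg adjustment, the induction differed between the lines for 12 members, beside 17.9% of all genes. It was more positive in the msx2 line for the ligands Wnt7b (3.19 ± 0.55, adjusted p = 0.00123), Wnt11 (2.80 ± 0.19, adjusted p = 2.39e-07), Wnt6 (2.62 ± 0.34, adjusted p = 5.7e-05) and Wnt10b (2.10 ± 0.31, adjusted p = 0.000274). It was also more positive for Axin2 (0.86 ± 0.16, adjusted p = 0.00163) and Lrp5 (0.61 ± 0.11, adjusted p = 0.00143). It was more negative for Wnt10a (-1.13 ± 0.17, adjusted p = 0.000257), Fzd7 (-0.74 ± 0.10, adjusted p = 0.000101), Fzd1 (-0.99 ± 0.20, adjusted p = 0.00261) and Fzd4 (-1.10 ± 0.21, adjusted p = 0.00136). The other two were Wif1 (-1.56 ± 0.29, adjusted p = 0.00127) and Rspo3 (-1.99 ± 0.42, adjusted p = 0.0039).

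The change from myoblasts to uninduced myotubes differed between the lines, by the same kind of test, for Lrp5 (-0.73 ± 0.12, adjusted p = 0.00226), Wnt9a (-1.02 ± 0.22, adjusted p = 0.0118) and Fzd9 (-0.88 ± 0.25, adjusted p = 0.0434), each more negative in the msx2 line. These members were 8.57% of those tested, beside 8.28% of all genes. The calls of Wnt9a and Fzd9 ended when the GFP-line myoblast libraries were summed, and under other alternatives given above.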

How the results depend on the processing

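Of the 22 members with full values, none changed direction in the msx2 induction or in the difference of inductions under the alternatives run; directions in the other comparisons were not followed member by member. Over the alternatives, 16 to 22 members passed in the msx2 induction and 12 to 16 in the difference of inductions. Of the settings run for single members in the difference, 404 kept the side of the threshold and 14 gained a call; in the msx2 induction 255 kept it and 31 lost a call. In uninduced myotubes (1 member), DESeq2 called 2, the replicate block 2, the block with a GC offset 3, a fit of the compared groups alone 0 and the fit without both msx2-line myotube libraries numbered 2 also 0; leaving out single libraries gave 0 to 1. In myoblasts (4 members), where same-numbered libraries shared only a number, the block gave 7 and the compared groups alone 11 (9 higher, 2 lower). For the difference of differentiations (3 members), DESeq2 called 5, the replicate block 4, the fit without both libraries numbered 2 called 5, summing the GFP-line myoblasts left 1, and leaving out single libraries gave 1 to 3. The GC offset with the block and the fit without both libraries numbered 2 were chosen after seeing the data. The cause of these shifts was not tested. Counts of few reads limit Wnt3, Wnt7a and Rspo4 in myoblasts, and Wif1 and Wnt6 in GFP-line myoblasts. A further 10 members were too low to test.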

Other observations

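Some of the members too low to test had reads in most myotube libraries. Wnt16 was at 0.211, 0.0788 and 0.0712 CPM in induced msx2-line myotubes, against 0.349, 0.142 and 0.467 CPM in uninduced ones, with 15 reads at most in a library. Wnt8b was at 0.211, 0.473 and 0.178 CPM, against 0.200, 0.249 and 0.249 CPM. Sfrp5 had no read in the 4 myoblast libraries. Over all 16 libraries together, Dkk4 had 8 reads, Fzd10 14, Dkk1 23 and Rspo1 58. No comparison was made on these counts.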
